A study of Homo sapiens with 6 samples.

Results

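The 10 receptor tyrosine kinases described here are ERBB2, ERBB3, EGFR, AXL, MET, KIT, PDGFRB, DDR1, FGFR1 and IGF1R, taken by symbol from the 17468 genes of an RNA sequencing table. All 10 were found, and 9 had a mean level of at least 1 FPKM (fragments scaled to transcript length and library size), the minimum for a test. KIT fell below it. The libraries came from Colo800 and A375, both human melanoma cell lines grown in 10% FBS. Each line was infected with a virus carrying the hairpin ETV1-sh2, the hairpin ETV1-sh1, both directed against the ETS-family transcription factor ETV1, or a scrambled hairpin. There was 1 library for each line and hairpin, 6 in all. RNA was taken 4 days after infection according to the design text, which speaks of duplicate infections. The sources used here do not say whether a column pools duplicates. The labels also attach a drug to each hairpin in both lines: 5 nM trametinib (a MEK inhibitor) to ETV1-sh2, DMSO to ETV1-sh1 and 1 uM of the BRAF inhibitor spelled vemurafinib to the scrambled hairpin. Their protocol names siRNA for 48 hours and drug for 8 hours, while the design text names no drug. If those drugs were given, a hairpin effect and a drug effect cannot be told apart, and this holds for each hairpin result that follows.

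Receptor tyrosine kinases span the cell membrane, bind a ligand outside the cell and phosphorylate tyrosines inside it, which recruits adaptors that switch on the RAS to ERK and PI3 kinase pathways. In melanoma these receptors are known for carrying signals that replace oncogenic BRAF when it is inhibited, and for marking cell states: ERBB3 and KIT belong to melanocyte-like cells, AXL and EGFR to dedifferentiated ones. Most of the receptors described here work as dimers, and ERBB3, whose own kinase is weak, signals through partners such as ERBB2.

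ETV1 mRNA was at 5.43% of the scrambled level with ETV1-sh2 and 30.3% with ETV1-sh1 in Colo800, and at 4.18% and 41.8% in A375. The depth of the libraries is unknown. Between 10418 and 11013 genes per library reached 1 FPKM. Both lines carried the melanocyte lineage factor SOX10, at 353 to 712 FPKM. The pigment enzyme genes DCT and TYR were at 14.8 to 125 FPKM in Colo800 and at most 0.0758 FPKM in A375. Other pigment genes were low in both lines: TYRP1, MLANA, GPR143 and OCA2 reached at most 1.85 FPKM in any library. A375 kept MITF at 8.61 to 12.6 FPKM and S100B at 39.4 to 118 FPKM. All 9 tested genes of this melanocyte and melanoma list were higher in Colo800 than in A375 at an adjusted p under 0.05 in limma. Of all genes 31.8% were. Against scrambled in limma, S100B of this list fell with ETV1-sh1 (log2 change -1.70, adjusted p = 0.0197), as did 1.51% of all genes. With ETV1-sh2 S100B (-1.06, adjusted p = 0.0194) and NGFR (-1.81, adjusted p = 0.00926) fell, as did 9% of all genes. In bulk RNA, fewer cells with a transcript and less of it per cell cannot be told apart.

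Either DDR1 or ERBB3 was the highest receptor transcript in each library, and their order differed between the hairpin and scrambled libraries. DDR1, a receptor for collagen, made up 71.8% of the summed FPKM of the 10 receptors with ETV1-sh2, 65.2% with ETV1-sh1 and 27.5% with the scrambled hairpin in Colo800. In A375 its shares were 51.5% with ETV1-sh2, 39.9% with ETV1-sh1 and 22.1% with the scrambled hairpin. ERBB3 ranked first of the 10 in both scrambled libraries, and DDR1 ranked first in all 4 ETV1 hairpin libraries. The second place was held by ERBB3 in the Colo800 hairpin libraries and by AXL in those of A375. There ERBB3 took 7.45% of the sum with ETV1-sh2 and 10.9% with ETV1-sh1, and AXL took 23.2% and 18.3%. KIT, the receptor for stem cell factor, was last everywhere. In Colo800 it was listed at 0 with ETV1-sh2, at 0.0118 FPKM with ETV1-sh1 and at 0.00961 FPKM with the scrambled hairpin; in A375 it was at 0.00354 FPKM with ETV1-sh1 and listed at 0 with the other hairpins. PDGFRB and EGFR filled the places just above KIT in 5 of the 6 libraries; in A375 with ETV1-sh2, MET stood between them. FPKM values are per length, so these levels can be compared between genes.

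**Figure D1:**
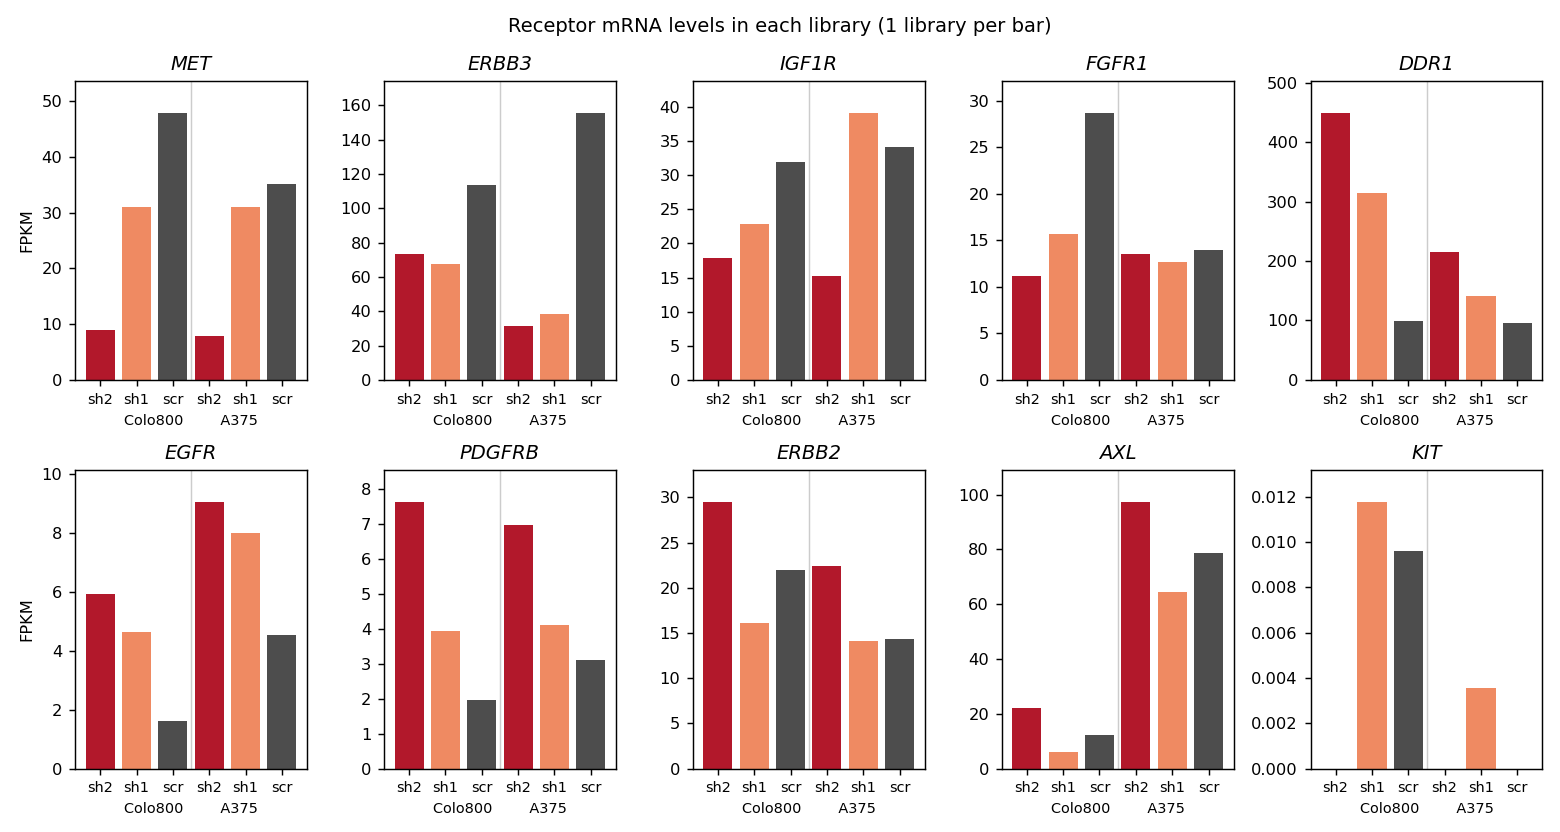
FPKM of the 10 receptors, 1 panel each with its own linear axis from 0; each bar is 1 library, ordered ETV1-sh2, ETV1-sh1 and scrambled (scr) in Colo800 and then in A375. MET is lowest with ETV1-sh2 in both lines (9.03 and 7.84 FPKM), ERBB3 is highest in the scrambled libraries, and DDR1, EGFR and PDGFRB are highest with ETV1-sh2 within each line.

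**Figure D2:**
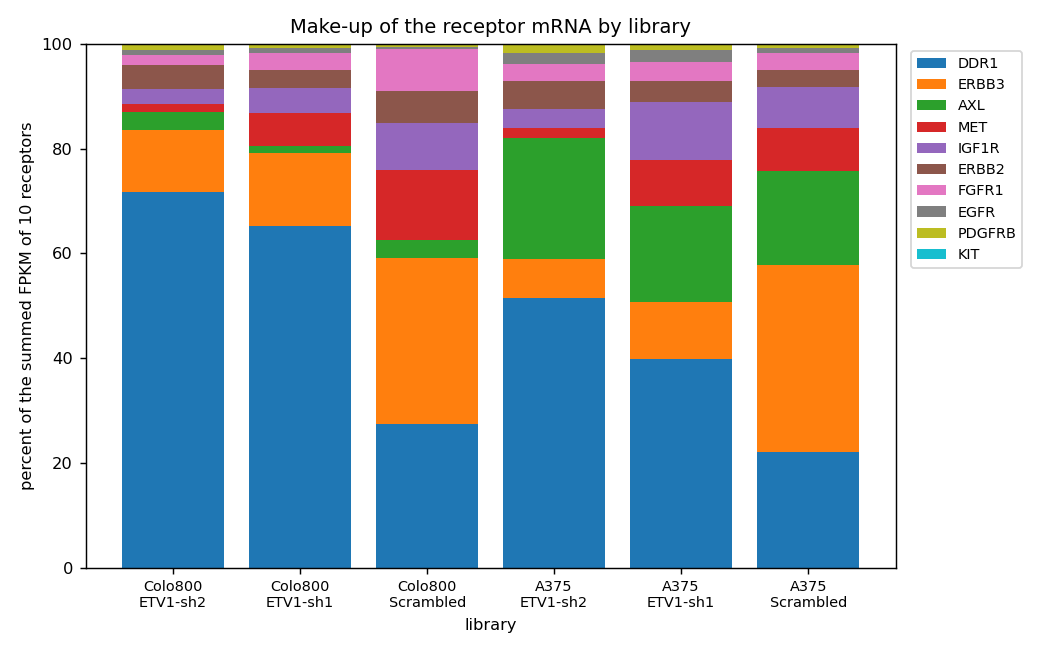
Percent of the summed FPKM of the 10 receptors taken by each, as stacked bars with 1 library per bar. DDR1 takes 71.8% with ETV1-sh2 against 27.5% with the scrambled hairpin in Colo800, and 51.5% against 22.1% in A375; AXL is a broad band in A375 and a narrow one in Colo800.

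The receptors were first compared between all 4 ETV1 hairpin libraries and the 2 scrambled ones, a limma fit on log2(FPKM + 1) with the cell line as a block. It asks which receptors change when ETV1 is lowered, whichever hairpin or line is used. No receptor passed an adjusted p of 0.05, nor did any of the 11129 genes tested (0% called). At an unadjusted p under 0.05 there were 4 of the 9 receptors, against 10.8% of all genes. Those were ERBB3 (log2 change -1.41, SE 0.341), EGFR (1.02, SE 0.243) and DDR1 (1.39, SE 0.331), each with an adjusted p of 0.301, and PDGFRB (0.89, SE 0.340, adjusted p = 0.447). The median over the 9 receptors was -0.02, beside 0.01 over all genes. EGFR, DDR1 and PDGFRB stood above the scrambled library of their line in all 4 hairpin libraries, as 19.7% of all genes did. ERBB3, MET and FGFR1 stood below it in all 4, as 16.8% of all genes did.

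Within each line, changes of at least 2-fold in 1 direction with both ETV1 hairpins were counted, with no test since each column is 1 library. In Colo800 EGFR and DDR1 met this on the higher side, where 0.899% of all genes did (1.81% in either direction), and no receptor met it on the lower side (0.908% of all genes). In A375 ERBB3 met it on the lower side, where 1.63% of all genes did, and no receptor met it on the higher side (0.952%).

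**Figure D3:**
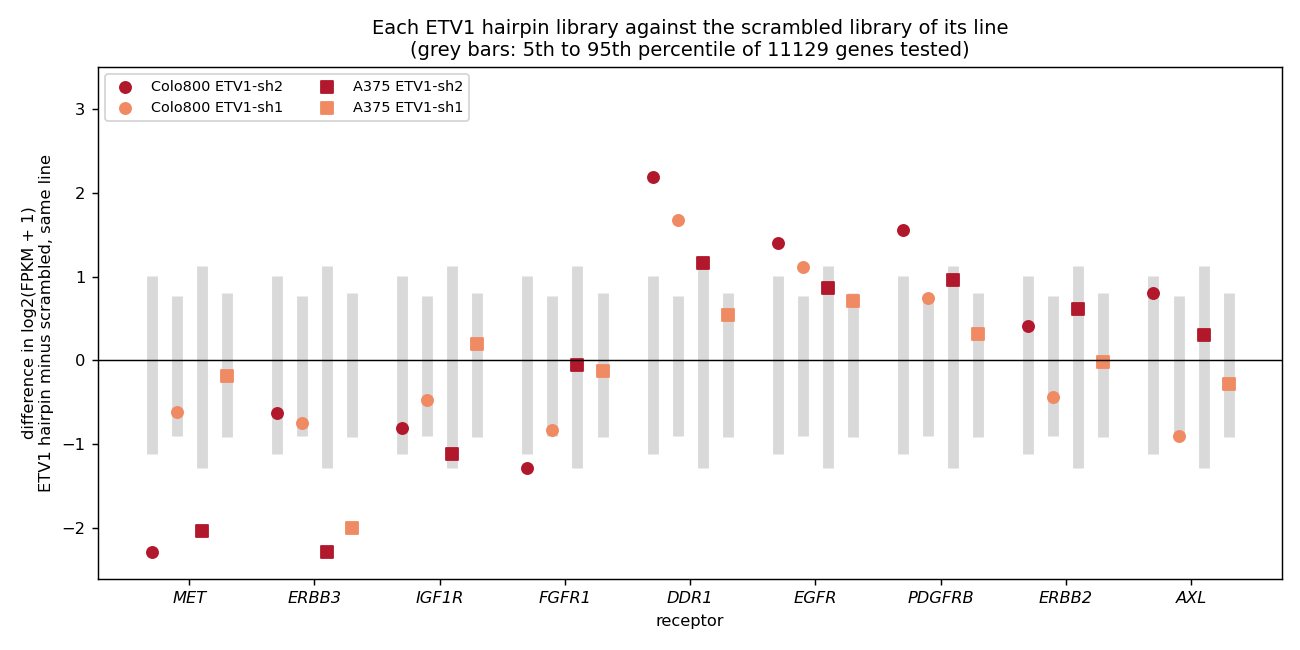
Difference in log2(FPKM + 1) of each ETV1 hairpin library from the scrambled library of its line, for the 9 receptors tested; circles are Colo800, squares A375, and grey bars span the 5th to 95th percentile of all genes tested in that library. MET lies near -2 with ETV1-sh2 and within the grey bars with ETV1-sh1, ERBB3 near -2 in A375 with both hairpins, and the DDR1 points of Colo800 at 2.18 and 1.67.

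To separate the hairpins, a second fit had 3 hairpin levels and the cell line as terms, which leaves 2 residual degrees of freedom. With ETV1-sh2, which left the least ETV1, 6 of the 9 receptors passed: MET, ERBB3 and IGF1R fell, and DDR1, PDGFRB and EGFR rose. Of all genes 16.7% passed, 9% lower and 7.73% higher (35.6% at an unadjusted p under 0.05). With ETV1-sh1 no receptor passed in limma, 3 had an unadjusted p under 0.05 (ERBB3, EGFR and DDR1), and 2.28% of all genes passed, 0.773% higher and 1.51% lower (18.8% at the unadjusted level). The median of the 9 was 0.51 with ETV1-sh2, beside 0.05 over all genes, and -0.23 with ETV1-sh1, beside 0.00. ETV1-sh2 set against ETV1-sh1 showed 3 receptors past the threshold, MET lower and ERBB2 and AXL higher, where 13.7% of all genes passed, 6.91% lower and 6.82% higher (33.4% at the unadjusted level). These fits share libraries, so their counts are not separate evidence. When low genes were not filtered out, no gene of the 16132 then tested passed in any of these hairpin fits.

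**Figure D4:**
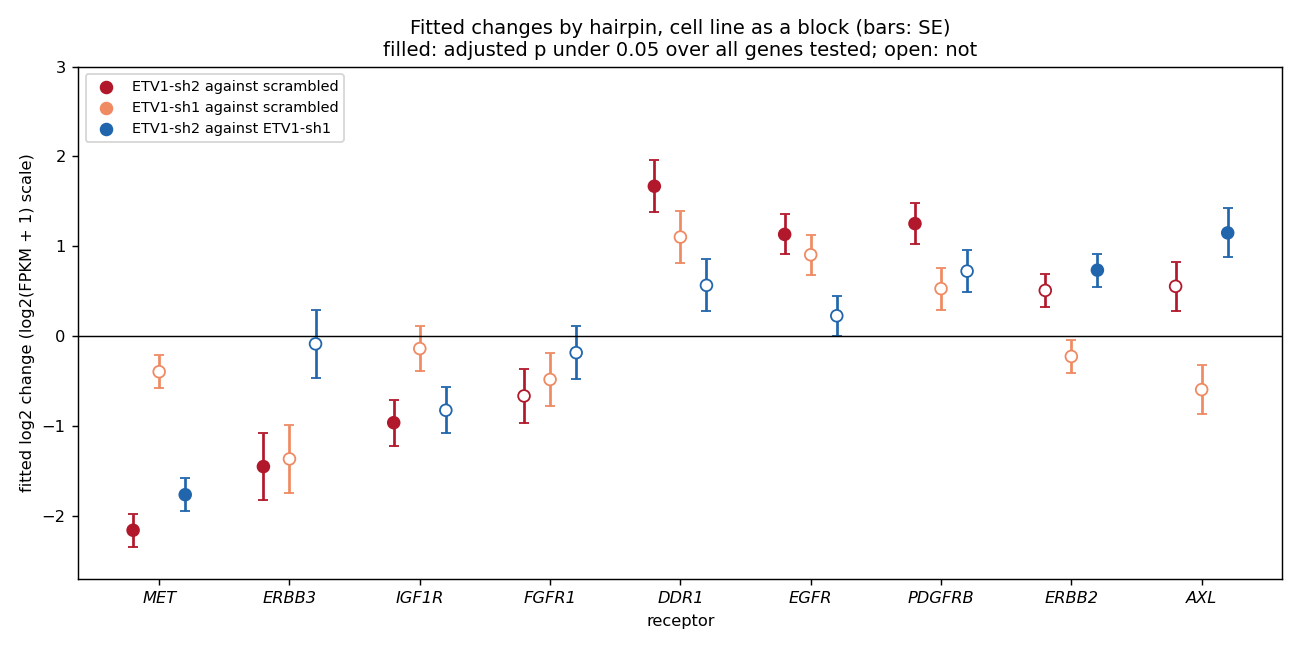
Fitted log2 change on the log2(FPKM + 1) scale for ETV1-sh2 against scrambled, ETV1-sh1 against scrambled and ETV1-sh2 against ETV1-sh1, with SE bars; filled points passed an adjusted p of 0.05 over all genes. MET has filled points at -2.16 and -1.76 for both contrasts of ETV1-sh2 and an open point at -0.40 for ETV1-sh1.

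MET, the receptor for hepatocyte growth factor, was at 9.03 FPKM with ETV1-sh2, 31.0 with ETV1-sh1 and 47.9 with the scrambled hairpin in Colo800. In A375 it was at 7.84 FPKM with ETV1-sh2, 30.9 with ETV1-sh1 and 35.2 with the scrambled hairpin. Both ETV1-sh2 libraries were well below the other 4, an order whose share over all genes was not counted. Both ETV1-sh1 libraries also lay below both scrambled ones, in A375 by little. All 4 hairpin libraries were thus below both scrambled ones, as for 4.39% of all genes. With ETV1-sh2 the fitted log2 change of MET was -2.16 (SE 0.184, adjusted p = 0.00766), and 0.171% of all genes had a larger statistic in that fit. With ETV1-sh1 its change was -0.40 (SE 0.184, 95% interval -0.84 to 0.05, adjusted p = 0.310). ETV1-sh2 lay below ETV1-sh1 by a log2 change of -1.76 (SE 0.184, adjusted p = 0.00706). Without any 1 of the 6 libraries the change with ETV1-sh2 stayed past the threshold, between -2.33 and -1.99. The difference between the hairpins was not called without Colo800 ETV1-sh1 (-1.92, adjusted p = 0.0779) or without A375 ETV1-sh1 (-1.61, adjusted p = 0.0891), fits with 1 residual degree of freedom as is each fit without a library here.

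ERBB3, the neuregulin receptor, was at 73.3 FPKM with ETV1-sh2, 67.6 with ETV1-sh1 and 113 with the scrambled hairpin in Colo800. In A375 it was at 31.3 FPKM with ETV1-sh2, 38.3 with ETV1-sh1 and 156 with the scrambled hairpin. All 4 hairpin libraries lay below both scrambled libraries, as did 4.39% of all genes, at 0.646 times scrambled with ETV1-sh2 and 0.596 times with ETV1-sh1 in Colo800, and at 0.201 and 0.246 times in A375. The fitted change was -1.45 with ETV1-sh2 (SE 0.375, adjusted p = 0.0473) and -1.37 with ETV1-sh1 (SE 0.375, adjusted p = 0.129). The hairpins differed by -0.09, with a 95% interval of -0.99 to 0.82. The call with ETV1-sh2 was lost without A375 scrambled (-0.72, adjusted p = 0.212), A375 ETV1-sh2 (-0.94, adjusted p = 0.121), A375 ETV1-sh1 (-1.45, adjusted p = 0.0931) or Colo800 ETV1-sh1 (-1.45, adjusted p = 0.0944), and with quantile normalization (-1.40, adjusted p = 0.0591) or no variance trend (adjusted p = 0.0597). With ETV1-sh1 a call appeared without Colo800 ETV1-sh2 (-1.37, adjusted p = 0.0184) or A375 ETV1-sh2 (-1.37, adjusted p = 0.0169).

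EGFR, the receptor for epidermal growth factor, was at 5.91 FPKM with ETV1-sh2, 4.64 with ETV1-sh1 and 1.61 with the scrambled hairpin in Colo800. In A375 it was at 9.05 FPKM with ETV1-sh2, 8.01 with ETV1-sh1 and 4.53 with the scrambled hairpin. All 4 hairpin libraries lay above both scrambled ones, as for 6.45% of all genes, though by little for Colo800 ETV1-sh1 against A375 scrambled. EGFR rose by 1.13 with ETV1-sh2 (SE 0.223, adjusted p = 0.0249), and its change with ETV1-sh1 was 0.91 (SE 0.223, adjusted p = 0.104). Leaving out A375 ETV1-sh2 kept the call; without any other single library the adjusted p with ETV1-sh2 was 0.058 to 0.154, with changes of 0.90 to 1.37. The ratio of EGFR to ERBB3 was 0.0807 with ETV1-sh2, 0.0686 with ETV1-sh1 and 0.0142 with scrambled in Colo800. In A375 it was 0.290 with ETV1-sh2, 0.209 with ETV1-sh1 and 0.0291 with scrambled, so ERBB3 stayed the more abundant transcript in every library.

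ERBB2, the family member without a known ligand and the preferred partner of ERBB3, differed between the hairpins. It was at 29.5 FPKM with ETV1-sh2, 16.1 with ETV1-sh1 and 22.0 with scrambled in Colo800, and at 22.5, 14.2 and 14.4 FPKM with the same hairpins in A375. The ETV1-sh2 library was the highest of each line, an order whose share over all genes was not counted. ERBB2 was higher with ETV1-sh2 than with ETV1-sh1 by 0.73 (SE 0.184, adjusted p = 0.0486), a call lost without any 1 library (0.58 to 0.89, adjusted p from 0.0756 to 0.198). It was also lost with scaling to a common median (adjusted p = 0.0519), quantile normalization (adjusted p = 0.0551) or no variance trend (adjusted p = 0.0586). Against scrambled its change was 0.51 with ETV1-sh2 (95% interval 0.06 to 0.95, adjusted p = 0.105) and -0.23 with ETV1-sh1 (95% interval -0.67 to 0.22, adjusted p = 0.552).

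DDR1 was at 449 FPKM with ETV1-sh2, 314 with ETV1-sh1 and 98.3 with the scrambled hairpin in Colo800. In A375 it was at 216 FPKM with ETV1-sh2, 140 with ETV1-sh1 and 96.4 with the scrambled hairpin. The scrambled libraries were nearly level, and all 4 hairpin libraries lay above both, as for 6.45% of all genes. DDR1 rose by 1.67 with ETV1-sh2 (SE 0.288, adjusted p = 0.0192), and among single libraries the call was lost only without Colo800 scrambled (1.13, adjusted p = 0.0720). With ETV1-sh1 its change was 1.10 (SE 0.288, adjusted p = 0.116), past the threshold without Colo800 ETV1-sh2 (1.10, adjusted p = 0.0327) or A375 ETV1-sh2 (1.10, adjusted p = 0.0305). ETV1-sh2 and ETV1-sh1 gave 4.57 and 3.20 times the scrambled level in Colo800, and 2.24 and 1.46 times in A375.

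PDGFRB, the receptor for PDGF-B and PDGF-D, was at 7.65 FPKM with ETV1-sh2, 3.95 with ETV1-sh1 and 1.96 with scrambled in Colo800, and at 6.99, 4.11 and 3.11 FPKM with the same hairpins in A375. Its order was the same in both lines, with ETV1-sh2 highest and scrambled lowest. All 4 hairpin libraries lay above both scrambled ones, as for 6.45% of all genes. PDGFRB rose by 1.25 with ETV1-sh2 (SE 0.232, adjusted p = 0.0213), and its change with ETV1-sh1 was 0.53 (95% interval -0.03 to 1.09, adjusted p = 0.288). The call was lost without Colo800 ETV1-sh1 (1.25, adjusted p = 0.0554), Colo800 scrambled (1.00, adjusted p = 0.135), A375 ETV1-sh1 (1.25, adjusted p = 0.0539) or A375 scrambled (1.51, adjusted p = 0.0774). PDGFRB is also a gene of fibroblasts, and some other fibroblast genes were higher in the same libraries. Of 6 fibroblast markers, 4 reached 1 FPKM in some library, and their summed level was 6.93 to 27.7 FPKM in hairpin libraries and 7.82 to 9.99 in scrambled ones. COL1A1 (1.88, SE 0.213, adjusted p = 0.00906) and LUM, the 2 markers tested, rose with ETV1-sh2, as did 7.73% of all genes. DCN was at 0.441 FPKM with ETV1-sh2, 0.119 with ETV1-sh1 and 0.113 with scrambled in Colo800. In A375 DCN was at 4.08, 0.247 and 0.423 FPKM with the same hairpins. COL1A2 was at 1.32 FPKM with ETV1-sh2, 0.178 with ETV1-sh1 and 1.78 with scrambled in Colo800 and at most 0.0726 FPKM in A375. COL3A1 stayed at or below 0.106 FPKM and PDPN was listed at 0 in 5 libraries. Their part in the result was not tested.

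IGF1R and FGFR1, the receptors for insulin-like and fibroblast growth factors, had 1 call between them. IGF1R was at 17.8 FPKM with ETV1-sh2, 22.8 with ETV1-sh1 and 32.0 with scrambled in Colo800, and at 15.2, 39.1 and 34.1 FPKM with the same hairpins in A375. The ETV1-sh2 library was the lowest of each line, an order whose share over all genes was not counted. IGF1R fell by 0.96 with ETV1-sh2 (SE 0.254, adjusted p = 0.0493), just inside the threshold. That call was lost with a pseudocount of 0.1 (adjusted p = 0.0502), quantile normalization (adjusted p = 0.0573) or no variance trend (adjusted p = 0.0616), and without Colo800 scrambled (-0.88, adjusted p = 0.221), A375 ETV1-sh2 (-0.64, adjusted p = 0.176) or A375 scrambled (-1.05, adjusted p = 0.173). Its difference between the hairpins was -0.82 (adjusted p = 0.0784), called without Colo800 ETV1-sh2 (-1.14, adjusted p = 0.0262). FGFR1 was at 11.2 FPKM with ETV1-sh2, 15.7 with ETV1-sh1 and 28.7 with scrambled in Colo800, and at 13.5, 12.7 and 14.0 FPKM with the same hairpins in A375. Colo800 scrambled stood apart from the other 5 libraries. The change with ETV1-sh2 was -0.67 (SE 0.298, adjusted p = 0.166), called without A375 ETV1-sh2 (-1.11, adjusted p = 0.0483).

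AXL, a receptor for GAS6 and protein S, differed between the hairpins. It was at 22.0 FPKM with ETV1-sh2, 6.02 with ETV1-sh1 and 12.1 with scrambled in Colo800, and at 97.4, 64.4 and 78.7 FPKM with the same hairpins in A375. In each line scrambled lay between the hairpins, an order whose share over all genes was not counted. AXL was higher with ETV1-sh2 than with ETV1-sh1 by 1.15 (SE 0.274, adjusted p = 0.0432). That call held without A375 ETV1-sh2; without any other single library the adjusted p was 0.0548 to 0.182, with differences of 0.71 to 1.58, and with no variance trend it was 0.0548. Against scrambled its change was 0.55 with ETV1-sh2 (95% interval -0.11 to 1.22, adjusted p = 0.199) and -0.59 with ETV1-sh1 (95% interval -1.26 to 0.07, adjusted p = 0.306).

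Colo800 was compared with A375 over the 3 hairpins in the same fit, to see how the receptors differ between the lines. AXL was lower in Colo800 by a log2 change of -2.64 (SE 0.223, adjusted p = 0.000345), EGFR was lower (-0.77, SE 0.182, adjusted p = 0.0127) and DDR1 was higher (0.75, SE 0.235, adjusted p = 0.0343). These were 3 of 9 receptors, while 57.1% of all genes passed, 31.8% higher and 25.3% lower in Colo800 (63.2% at the unadjusted level). Colo800 held 0.226 times the AXL level of A375 with ETV1-sh2, 0.0935 times with ETV1-sh1 and 0.154 times with scrambled, and every Colo800 library lay below every A375 library, as for 21.6% of all genes. The AXL call held without any 1 library (-2.91 to -2.35). DDR1 in Colo800 was at 2.08 and 2.24 times its A375 level with ETV1-sh2 and ETV1-sh1 and at 1.02 times with scrambled. Its call was lost without the Colo800 or A375 library of ETV1-sh2 (0.59, adjusted p = 0.0752 and 0.0745) or of ETV1-sh1 (0.54, adjusted p = 0.176), and with quantile normalization (0.49, adjusted p = 0.117), scaling to a common median (0.65, adjusted p = 0.0518) or no filter on low values (0.75, adjusted p = 0.0948). EGFR lost its call without Colo800 scrambled (-0.61, adjusted p = 0.0776) or A375 scrambled (-0.61, adjusted p = 0.0818).

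ERBB3 showed no single order of the lines. It was higher in Colo800 with ETV1-sh2 (log2 difference 1.20) and ETV1-sh1 (0.80) and lower with scrambled (-0.45), and the fit over all hairpins gave 0.52 (SE 0.306, adjusted p = 0.190). Without Colo800 scrambled or A375 scrambled it was 1.00, with adjusted p of 0.0115 and 0.0121. FGFR1 was at 0.34 (adjusted p = 0.271), and at 0.63 with adjusted p of 0.0416 and 0.0414 without the Colo800 or the A375 ETV1-sh2 library. For MET, ERBB2, PDGFRB and IGF1R the difference between the lines was 0.21, 0.38, -0.14 and -0.21, none past the threshold. MET in Colo800 was at 1.15 times its A375 value with ETV1-sh2, 1.00 times with ETV1-sh1 and 1.36 times with scrambled.

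**Figure D5:**
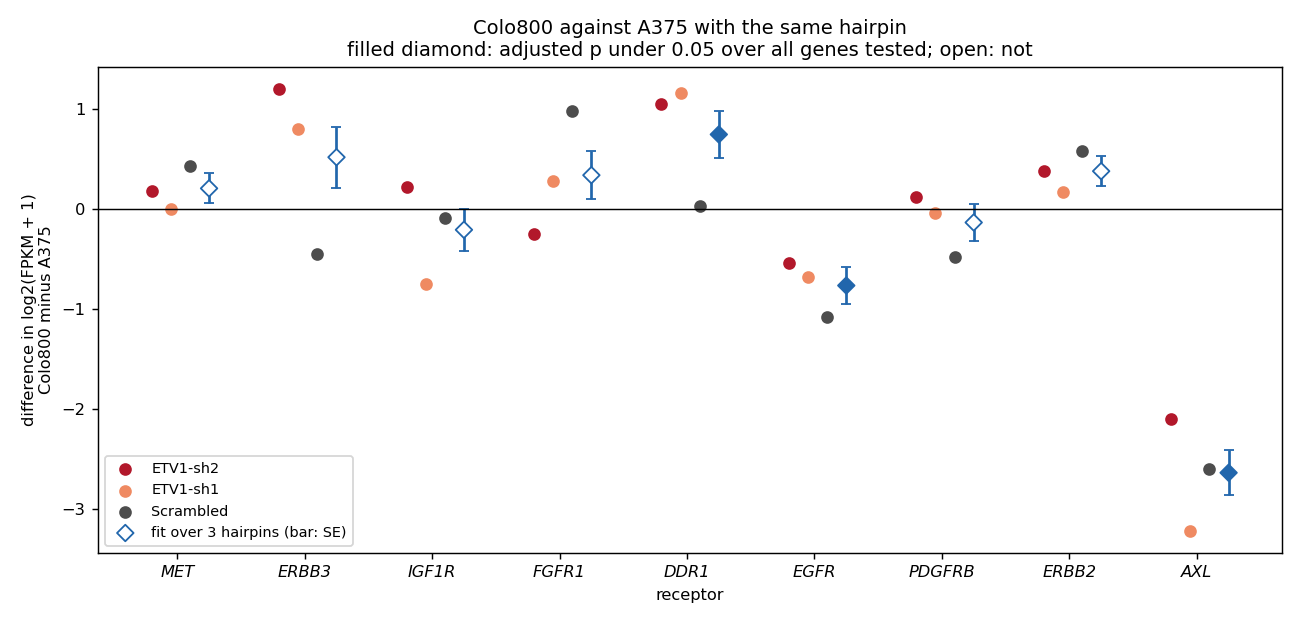
Difference in log2(FPKM + 1) between Colo800 and A375 with the same hairpin (dots), and the fitted difference over the 3 hairpins with its SE (diamonds, filled where the adjusted p was under 0.05). AXL lies from -3.22 to -2.10, DDR1 near 1 with both ETV1 hairpins and near 0 with scrambled, and ERBB3 changes sign between the ETV1 hairpins and scrambled.

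Whether knockdown acted differently in the lines was tested as the effect in Colo800 minus the effect in A375. No receptor and no gene passed in limma (0%), and 1 receptor, ERBB3, had an unadjusted p under 0.05, as did 0.593% of all genes. Its difference was 1.46 (SE 0.461, 95% interval 0.30 to 2.61, adjusted p = 1.00 after rounding). DDR1 was at 1.08 (95% interval -0.43 to 2.58) and FGFR1 at -0.97 (95% interval -2.35 to 0.42). The fit has 2 residual degrees of freedom, and its spread is the difference between the 2 ETV1 hairpins within each line. A receptor on which the hairpins differ thus has a wide interval. The SE of MET was 1.40 here and 0.184 in the fit with 3 hairpin levels, which has the same degrees of freedom.

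Among the ligands, 20 of 44 were tested and 4 rose with ETV1-sh2 (7.73% of all genes), while none fell (9% of all genes). They were the collagen chain COL1A1, a DDR1 ligand, the EGFR ligand BTC (1.38, SE 0.238, adjusted p = 0.0194), and both AXL ligands, PROS1 (1.19, SE 0.279, adjusted p = 0.0370) and GAS6 (1.09, adjusted p = 0.0201). GAS6 was at 9.52 FPKM with ETV1-sh2, 9.55 with ETV1-sh1 and 3.45 with scrambled in Colo800, and at 42.2, 37.4 and 21.6 FPKM in A375. Every A375 library was above every Colo800 library for GAS6 (Colo800 against A375 -2.08, adjusted p = 0.000265), as for 21.6% of all genes. AXL had the same order. PDGFA (3.43) and PDGFB (2.90) were higher in Colo800, as was the ERBB3 ligand NRG1 (1.69), with adjusted p from 0.000153 to 0.00141. Of the ligands tested 7 were higher (31.8% of all genes) and 5 lower (25.3% of all genes) in Colo800. The median of the list with ETV1-sh2 was 0.05, that of all genes 0.05. With ETV1-sh1 no ligand passed, where 2.28% of all genes did.

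Of 35 other receptor tyrosine kinases 14 were tested, and 3 rose with ETV1-sh2 and none fell: the FGF-binding receptor FGFRL1 (1.82, adjusted p = 0.0293), MST1R, a relative of MET (1.63, adjusted p = 0.0229), and the pseudokinase PTK7 (0.87, adjusted p = 0.0236). MST1R was at 2.14 FPKM with ETV1-sh2, 0.377 with ETV1-sh1 and 0.172 with scrambled in Colo800, and at 4.60, 2.76 and 0.563 FPKM in A375. Of all genes 7.73% rose and 9% fell with ETV1-sh2. The median of these 14 was -0.17. In Colo800 against A375 7 were higher (31.8% of all genes), among them FLT1 (2.38), the AXL relative TYRO3 (2.25) and ROR1 (1.63). There were 2 lower (25.3% of all genes), among them KDR (-1.38).

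Behind the receptors, 24 of 26 adaptors and first effectors were tested. With ETV1-sh2 2 rose (7.73% of all genes) and 5 fell (9% of all genes). The PI3 kinase catalytic subunits PIK3CB (-1.36, SE 0.169, adjusted p = 0.0105) and PIK3CA (-1.32, adjusted p = 0.0167) and the insulin receptor adaptor GRB10 (-1.40, adjusted p = 0.0277) fell, and the PI3 kinase regulatory subunit PIK3R2 (1.18, adjusted p = 0.0287) rose. PIK3CB was at 14.6 FPKM with ETV1-sh2, 37.2 with ETV1-sh1 and 37.5 with scrambled in Colo800, and at 14.5, 45.0 and 40.6 FPKM in A375. PIK3CB was thus low in the ETV1-sh2 libraries alone. MET was lowest there too, but it also lay below scrambled with ETV1-sh1 in each line. The adaptor CRKL fell with ETV1-sh1 (-1.20, adjusted p = 0.0337), as did 1.51% of all genes. None of the 19 tested genes that down-regulate receptors passed with either hairpin against scrambled in limma. Of all genes 16.7% passed with ETV1-sh2 and 2.28% with ETV1-sh1. PTPRJ, a phosphatase that acts on MET and EGFR, was at -0.94 over both hairpins (adjusted p = 0.420). ERRFI1, a feedback inhibitor of the ERBB receptors, was at -0.60 over both hairpins (adjusted p = 0.438).

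Among 13 tested proteases of receptors and ligands and their inhibitors, 2 rose (7.73% of all genes) and 2 fell (9% of all genes) with ETV1-sh2. FURIN, which cleaves the precursors of MET and IGF1R, rose by 1.98 (adjusted p = 0.00806), and SPINT1, an inhibitor of the protease that activates hepatocyte growth factor, by 2.98 (adjusted p = 0.0113). TIMP3, an inhibitor of the sheddase ADAM17, fell by 3.10 (adjusted p = 0.0178), and the sheddase ADAM10 by 0.66 (adjusted p = 0.0390). SPINT1 was at 7.28 FPKM with ETV1-sh2, 1.91 with ETV1-sh1 and 0.375 with scrambled in Colo800, and at 35.8, 3.06 and 2.54 FPKM in A375. With ETV1-sh1 FURIN rose (1.93, adjusted p = 0.0197), and TIMP3 (-3.15, adjusted p = 0.0431) and ADAM10 (-1.29, adjusted p = 0.0263) fell. Of all genes 0.773% rose and 1.51% fell with ETV1-sh1.

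Of 17 tested transcription factors linked to these receptors, 4 fell (9% of all genes) and 2 rose (7.73% of all genes) with ETV1-sh2. YAP1 (-1.95, adjusted p = 0.0100), its paralog WWTR1 (-1.07) and their partner TEAD1 (-1.02), which drive AXL in many cell types, fell, as did the melanocyte factor TFAP2A (-1.40, adjusted p = 0.0120). EGR1 (1.69, adjusted p = 0.0339) and FOXO4 (0.94, adjusted p = 0.0213) rose. Of the 16 genes that follow ERK activity, 4 fell with ETV1-sh2 (9% of all genes): MYC (-2.26), CCND1 (-1.86), SPRY4 (-1.48) and DUSP4 (-1.43). EGR1, which is in both lists, rose, as did 7.73% of all genes. The adjusted p of these genes ran from 0.00806 to 0.0339. With ETV1-sh1 ETV5 fell (-1.54, adjusted p = 0.0294), as did 1.51% of all genes. The labels put a MEK inhibitor on the ETV1-sh2 libraries, DMSO on ETV1-sh1 and a BRAF inhibitor on the scrambled ones. CCND1 was at 139 FPKM with ETV1-sh2, 167 with ETV1-sh1 and 346 with scrambled in Colo800, and at 76.8, 207 and 411 FPKM in A375. ETV5 was at 93.4, 60.7 and 186 FPKM with the same hairpins in Colo800, and at 55.7, 24.5 and 70.3 FPKM in A375. The part of the labelled drugs was not tested.

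The genes whose levels ran most like ERBB3 over the 6 libraries were TARS (Pearson r 0.981), FYB (0.963) and SLC20A1 (0.961), and those most like EGFR were VAMP2 (0.995), DFNB31 (0.993) and FBXO33 (0.990). ERBB3 and EGFR had the smallest p in each direction in the fit over both hairpins. In all 8 genes reached r of at least 0.95 with ERBB3 and 82 with EGFR, over libraries that share lines and hairpins.

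Promoter sequence was read for 8 of the receptors from RefSeq on GRCh38.p14, as 300-base windows from 250 bases before each transcript start to 50 after, 17 windows in all. The promoters of ERBB3 and FGFR1 were not read, so whether they hold these motifs is not known here. The motifs were searched on both strands. CCGGAA, a form of the core that ETS factors such as ETV1 bind, was in 3 of the 17 windows, in ERBB2, DDR1 and AXL, and in 17.2% of all 35116 windows in the table. GGGCGG, the GC box that SP1 binds, was in 10 of the 17 and in 45% of all. ERBB2 was the receptor with more than 1 match to CCGGAA, at 25 and 14 bases before the transcript start on which its window was built. Whether ERBB2 mRNA in these cells begins at that start was not tested. The second match lies in the longer form ACCGGAAG, found in 2.17% of all windows. MET and EGFR, the receptor with the largest change with ETV1-sh2 and one that stood above scrambled in all 4 hairpin libraries, are shown with ERBB2 for contrast. Matches to CCGGAA or GGGCGG on either strand are in capitals, in the direction of the gene. The ERBB2 window is chr17:39687844-39688143, the MET window chr7:116671946-116672245 and the first EGFR window chr7:55018767-55019066, all on the plus strand.
ERBB2: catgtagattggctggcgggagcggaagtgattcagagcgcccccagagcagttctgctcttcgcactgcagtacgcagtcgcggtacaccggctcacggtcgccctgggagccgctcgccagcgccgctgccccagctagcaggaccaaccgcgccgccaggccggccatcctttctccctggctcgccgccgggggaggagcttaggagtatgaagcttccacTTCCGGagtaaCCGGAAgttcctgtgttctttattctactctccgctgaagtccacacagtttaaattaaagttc
MET: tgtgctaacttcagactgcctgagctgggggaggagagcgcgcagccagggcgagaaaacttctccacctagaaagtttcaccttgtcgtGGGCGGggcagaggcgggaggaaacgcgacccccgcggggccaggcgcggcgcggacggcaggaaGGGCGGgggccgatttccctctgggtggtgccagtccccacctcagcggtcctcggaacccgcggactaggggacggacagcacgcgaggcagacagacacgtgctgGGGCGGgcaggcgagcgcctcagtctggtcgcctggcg
EGFR: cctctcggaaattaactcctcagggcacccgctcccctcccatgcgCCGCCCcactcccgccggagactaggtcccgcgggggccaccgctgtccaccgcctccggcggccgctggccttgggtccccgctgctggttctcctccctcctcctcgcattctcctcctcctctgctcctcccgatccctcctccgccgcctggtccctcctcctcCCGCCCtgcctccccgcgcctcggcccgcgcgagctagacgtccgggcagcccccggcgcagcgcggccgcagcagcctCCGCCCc
The MET and EGFR windows hold 3 GGGCGG matches each and no CCGGAA, and the ERBB2 window holds no GGGCGG. No deposited measurement here shows binding at these sites.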

How the data were processed

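RNA sequencing of 6 libraries was analysed from the authors' deposited table of FPKM values, with 17468 genes. Per the submitters' processing notes these were made with STAR 2.4, Cufflinks 2.2.1 and Cuffnorm on hg19. The sources used here give no annotation, scaling method, filter or strandedness, so overlapping genes cannot be told apart. Tests used limma 3.58.1 in R 4.3.3 (lmFit, and eBayes with its trend option) after adding a pseudocount of 1 to the FPKM and taking log2. The 11129 genes whose mean FPKM reached 1 were tested, with Benjamini-Hochberg adjustment over all of them and a threshold of 0.05. A change on this scale understates that of low genes. The script was tested on simulated data. No source states that the libraries are independent cultures; each p reflects the spread among these 6 columns, which may be technical. The receptors and gene lists were chosen with earlier results of these data known. All receptors were named. From each list, all members past the threshold were picked where 6 or fewer, otherwise the 4 largest changes. With none past it, the 2 with the largest statistic were picked. Not every gene so picked is printed in the text. Alternatives were a pseudocount of 0.1, no filter, other scalings, no variance trend, no line block and each library left out. Library depth cannot be had from these FPKM values. The 10 receptor identifiers matched the reference names.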

Additional observations from a re-analysis of the deposited data

Results flagged for a closer look

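MET, AXL and ERBB2 stood out because the effects of the 2 ETV1 hairpins differed by a test of the difference itself, by limma with the cell line as a block. The ETV1-sh2 effect minus the ETV1-sh1 effect was -1.76 on the log2 scale for MET (lower with ETV1-sh2 in both lines), 1.15 for AXL and 0.73 for ERBB2 (both higher with ETV1-sh2 in both lines). Of all genes 13.7% passed the same limma test. MET had an adjusted p of 0.00706 there, while AXL (0.0432) and ERBB2 (0.0486) were just inside the threshold. The AXL and ERBB2 calls were lost with no variance trend, and that of ERBB2 also with median scaling or quantile normalization.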

How the results depend on the processing

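The labels number no replicates, so libraries were matched by cell line alone, which was the block. Without that block no receptor passed over both hairpins either. Counts of receptors past the threshold moved by over 1.5 times in these cases. With no filter on low values 0 receptors passed for ETV1-sh2 against scrambled and 0 for ETV1-sh2 against ETV1-sh1; the cause was not tested. With no variance trend 1 passed between the hairpins, MET. With quantile normalization 1 receptor, DDR1, moved at least 2-fold with both hairpins in Colo800. With each library left out 0 to 2 receptors passed for ETV1-sh1 against scrambled, 2 to 5 for ETV1-sh2 against scrambled and 0 to 2 for ETV1-sh2 against ETV1-sh1; over all genes these fits called 0 to 786, 75 to 1909 and 0 to 1694, against 254, 1862 and 1528 with every library. Signs turned only for changes that were not past the threshold. Over both hairpins AXL was at 0.0372 with quantile normalization and -0.38 to 0.35 with a library left out, and ERBB2 at -0.0158 to 0.34. With a library left out the difference between lines in the knockdown effect was -1.27 to 0.59 for MET, -0.73 to 0.11 for ERBB2, -0.91 to 0.80 for AXL and -0.83 to 0.48 for IGF1R. With ETV1-sh1 IGF1R was at -0.54 to 0.27 and FGFR1 at -0.97 to 0.00245; between the hairpins FGFR1 was at -0.62 to 0.26 and ERBB3 at -0.60 to 0.43; between the lines IGF1R was at -0.42 to 0.0624 and PDGFRB at -0.26 to 0.035. Of the single-receptor values, 238 kept direction and side of the threshold with a library left out, 36 lost a call, 10 gained one and 22 turned sign; under the other settings 257 kept them, 21 lost a call and 1 turned sign. The difference between lines in the knockdown effect could not be fitted without a scrambled library. KIT was below the minimum level for a test.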
